A study of Homo sapiens with 14 samples.

Results

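The genes described here make ribosomes, apart from the transcription factors MYC and MYCN, which are counted with them. The set holds 37 genes, chosen by symbol from the deposited count table of 26485 genes: 4 genes of RNA polymerase I transcription, 4 core proteins of small nucleolar ribonucleoproteins (snoRNPs), 11 small-subunit processing factors, 12 large-subunit processing factors, 4 nucleolar chaperones, and MYC and MYCN. All 37 passed the filter on low counts and were among the 16149 genes tested. After 5 days of neural crest induction, the median of these genes stood at 50.2% of its level in the starting stem cells at the lower CHIR99021 dose and at 49.3% at the higher dose, and none of the 37 group means reached the stem cell mean in either group.

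Messenger RNA was sequenced from WA01 cells, an established human embryonic stem cell line, either uninduced (hESC) or induced for 5 days toward neural crest, the embryonic cell population that gives rise to peripheral neurons, glia, pigment cells and much of the facial skeleton. All induced cultures received CHIR99021, which inhibits the kinase GSK3 and so activates canonical Wnt signaling, from hour 0 to hour 72, at 3 µM (low Wnt) or 10 µM (high Wnt). At each dose there was a group with no additive, a group with 10 µM SB431542 (SB4), which blocks the receptor kinases that TGF-beta, activin and nodal signal through, and a group with recombinant TGF-beta 1 (TGFB) at 5 ng/µL, the unit that the labels give, both from hour 0 to hour 120. The 7 groups had 2 libraries each. All come from 1 cell line with no genetic change stated, each induced library was made from 500000 cells of a whole culture, and nothing in the labels says that replicates were separate cultures, so p-values measure the spread between libraries, which may be technical.

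A ribosome is assembled in the nucleolus. RNA polymerase I copies the ribosomal DNA into a long precursor, snoRNPs guide its chemical modification, and a series of processing factors cut, fold and pack it into the precursors of the small and large subunits. MYC and MYCN are related transcription factors known for binding E-box sequences near the start sites of many of these genes, and pluripotent stem cells are known for high ribosome production.

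Library totals ran from 10879287 to 19106827 counts, and the values below are counts-per-million (CPM) with library sizes scaled by TMM, so each is a share of the messenger RNA sequenced and not an amount per cell. In such bulk cultures, fewer cells of a type and less RNA per cell cannot be told apart. The stem cell gene POU5F1 was at 164 and 231 CPM in hESC, at 1.95 and 4.36 CPM in low Wnt, at 44.9 and 38.9 CPM in low Wnt + TGFB, and at or under 0.166 CPM in each high Wnt library without an additive. The summed level of 10 neural crest markers was 153 to 155 CPM in hESC, 165 to 166 CPM in low Wnt and 308 to 334 CPM in high Wnt, where TFAP2B was at 0. Gene by gene, 6 of these 10 markers rose and 2 fell in low Wnt against hESC (median log2 fold change 1.87), and 4 rose and 3 fell in high Wnt against hESC (median -0.33).

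The start sites of these genes were examined for the E-box bound by MYC family proteins, since MYC and MYCN are among the 37. RefSeq promoter sequences (GRCh38.p14, 250 bases before to 50 bases after each start) were found for 29 of the 37 genes. For each member only the first listed start was searched. TCOF1, NOP58, RRP12, BOP1, RRS1, RRP1B, NOLC1 and MYC had no sequence and are left out of the counts and medians below. The letters CACGTG, which read the same on both strands, occurred in 10 of those 29 promoters (34.5%), against 7.26% of 35116 promoters of the same length in the table and 9.71% of 11642 promoters of tested genes. The first base of each match lay between position -10 and position 35 relative to the start. The windows around those 10 matches are shown because they are a sequence feature that these members share, 5′ to 3′ on the gene's strand, with CACGTG in capitals.
RRP9, chr3:51941884-51941929, minus strand: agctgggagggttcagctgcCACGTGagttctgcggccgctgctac
UTP20, chr12:101280075-101280120, plus strand: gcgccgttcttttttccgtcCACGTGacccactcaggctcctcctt
PES1, chr22:30591872-30591917, minus strand: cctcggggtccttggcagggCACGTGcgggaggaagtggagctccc
NOP2, chr12:6568242-6568276, minus strand: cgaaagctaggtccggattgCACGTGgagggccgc
NOP14, chr4:2963366-2963411, minus strand: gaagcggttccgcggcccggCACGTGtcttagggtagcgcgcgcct
FBL, chr19:39846348-39846393, minus strand: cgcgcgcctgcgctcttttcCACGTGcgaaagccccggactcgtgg
BYSL, chr6:41921507-41921548, plus strand: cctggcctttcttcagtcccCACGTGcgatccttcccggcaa
NOC3L, chr10:94362895-94362940, minus strand: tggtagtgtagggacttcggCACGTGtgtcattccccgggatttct
WDR43, chr2:28894650-28894695, plus strand: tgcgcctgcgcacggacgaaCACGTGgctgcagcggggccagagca
GNL2, chr1:37595909-37595954, minus strand: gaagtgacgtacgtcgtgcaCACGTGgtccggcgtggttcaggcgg
Matches were found in 5 of 10 small-subunit and 4 of 9 large-subunit factors, in 1 of 3 snoRNP proteins, in 0 of 3 polymerase I genes and in 0 of 3 chaperones. A further 15 of 33 promoters of other small-subunit factors (45.5%) and 12 of 43 of other large-subunit factors (27.9%) held the letters, with 1 of 11 of other polymerase I genes (9.09%) and 1 of 9 of other snoRNP proteins (11.1%), against 3 of 63 promoters of cytosolic ribosomal proteins (4.76%). Among the 29, members with a match had a median log2 fold change of -0.97 in low Wnt against hESC and members without one had -0.98. In high Wnt against hESC those medians were -1 and -0.90. A match is only a description of these letters, and its absence from this window says nothing of a factor's binding. The whole promoters of RRP9 and NOP16 are printed as a contrast: both genes were among those with the largest falls on induction, and only the first holds the match.
RRP9, chr3:51941855-51942154, minus strand: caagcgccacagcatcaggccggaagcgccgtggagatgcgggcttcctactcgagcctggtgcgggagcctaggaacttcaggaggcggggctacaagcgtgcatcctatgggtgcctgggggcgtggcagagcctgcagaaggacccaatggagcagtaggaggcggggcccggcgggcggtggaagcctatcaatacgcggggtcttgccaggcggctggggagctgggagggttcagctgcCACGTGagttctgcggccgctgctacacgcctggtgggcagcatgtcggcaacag
NOP16, chr5:176388549-176388848, minus strand: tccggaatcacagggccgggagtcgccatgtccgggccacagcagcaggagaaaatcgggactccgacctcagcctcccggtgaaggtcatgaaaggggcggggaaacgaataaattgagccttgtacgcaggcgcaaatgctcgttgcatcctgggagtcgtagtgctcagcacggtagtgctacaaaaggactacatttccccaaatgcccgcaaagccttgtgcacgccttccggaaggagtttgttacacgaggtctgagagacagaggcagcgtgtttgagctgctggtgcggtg

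Induction at the low CHIR99021 dose lowered nearly the whole set. Between low Wnt and hESC, 34 of the 37 genes fell and 0 rose (rises and falls, or calls, are those with a p under 0.05 in edgeR's quasi-likelihood test after Benjamini-Hochberg adjustment), against a background of 35.6% of all tested genes called lower and 35.8% called higher. The median log2 fold change of the members was -0.99, where the median of all tested genes was 0.00. At an unadjusted p under 0.05 edgeR counted 36 members, and DESeq2 called 36. Genes not called were UTP15 (edgeR adjusted p = 0.166), GNL3 (0.067) and WDR75 (0.0536). The members' summed level went from 10150 and 10540 CPM in hESC, or 1.02% and 1.05% of counts, to 6080 and 5980 CPM in low Wnt.

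High Wnt gave a similar count. Of the 37 genes, 31 fell and 0 rose against hESC, with a median log2 fold change of -1.02 and a background of 36.1% called lower and 36.3% called higher. The genes not called were UTP15, NOP58, MYCN, WDR75, GNL3 and NPM1. Both comparisons share the hESC libraries. In hESC the summed level of 8 stem cell markers was 5000 to 5130 CPM. It was 1060 to 1100 CPM in low Wnt and 608 to 652 CPM in high Wnt with NANOG at 0. Of these 8 genes, 7 fell and 1 rose in low Wnt, and 7 fell and 0 rose in high Wnt. The summed level of 25 cell cycle genes was 6340 to 6730 CPM in hESC, 5950 to 5970 CPM in low Wnt and 6180 to 6230 CPM in high Wnt. Of these 25, 6 rose and 12 fell in low Wnt (median -0.18), and 7 rose and 12 fell in high Wnt (median -0.39). The 7 central nervous system markers summed to 2.81 to 3.39 CPM in hESC with NEUROG2 and HES5 at 0, to 258 to 264 CPM in low Wnt and to 19 to 24.4 CPM in high Wnt with DBX1 at 0. Of these 7, 6 rose and 0 fell in low Wnt, and 3 rose and 3 fell in high Wnt. The 9 mesoderm markers summed to 172 to 194 CPM in hESC with MSGN1 at 0, to 9.32 to 10.2 CPM in low Wnt and to 208 to 242 CPM in high Wnt. Of the 8 of them tested, 2 rose and 3 fell in low Wnt, and 6 rose and 1 fell in high Wnt. The 4 endoderm markers summed to 1.7 to 2.8 CPM in hESC, 17.2 to 18 CPM in low Wnt and 85 to 104 CPM in high Wnt, with 2 and 1 of them called higher and 0 lower. The part of these marker lists in the members' fall was not tested.

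**Figure D1:**
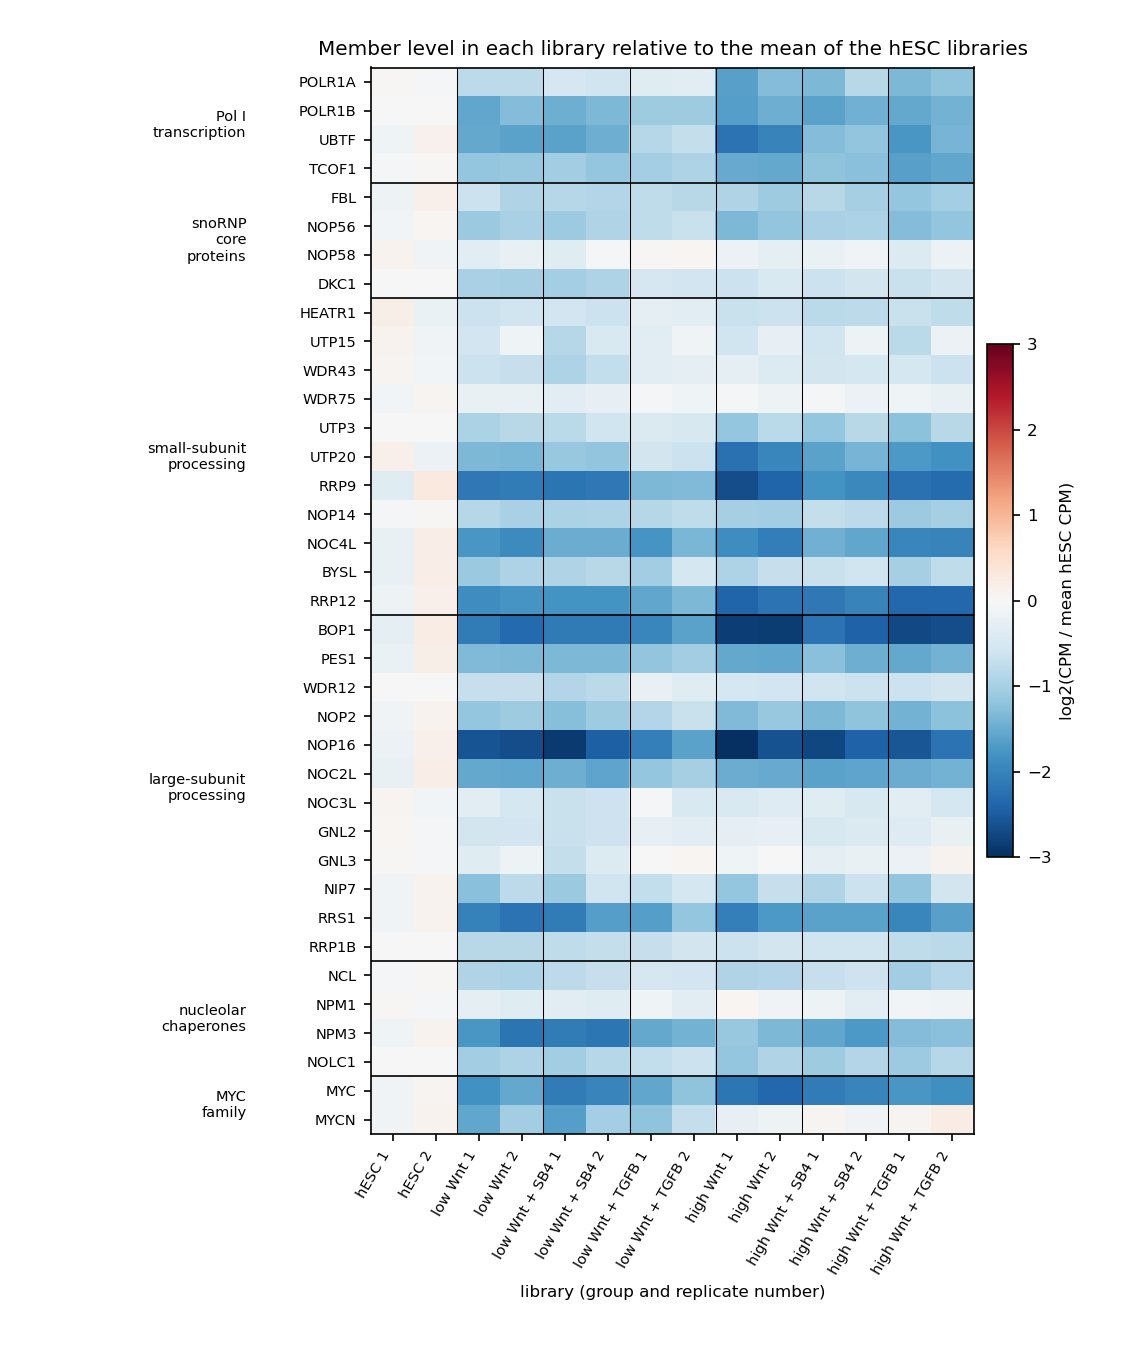
Level of each of the 37 genes (rows, grouped by role) in each of the 14 libraries (columns), as log2 of the CPM over the mean CPM of the hESC libraries, with blue for lower and red for higher. Most rows are blue in every induced library, and the rows of NPM1, WDR75, GNL3 and NOP58 stay pale.

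The 4 polymerase I genes fell at both doses. UBTF, the factor that binds and opens the ribosomal DNA repeats, lies at chr17:44205033-44221626 (hg38, minus strand). Its level was 152 and 183 CPM in hESC, 57.6 and 55.0 CPM in low Wnt, and 36.4 and 42.1 CPM in high Wnt. The groups did not overlap, and the log2 fold change was -1.57 ± 0.13 (SE, edgeR adjusted p = 1.18e-08) in low Wnt and -2.09 ± 0.13 (edgeR adjusted p = 4.51e-10) in high Wnt. POLR1B, the second-largest subunit of the enzyme, was at 106 and 105 CPM in hESC, at 35.8 and 42.7 CPM in low Wnt and at 33.7 and 38.4 CPM in high Wnt, a like level at both doses. TCOF1, the treacle protein that supports polymerase I transcription and is known for its role in the cranial neural crest, went from 413 and 436 CPM in hESC to 191 and 193 CPM in low Wnt and 148 and 147 CPM in high Wnt. POLR1A, the largest subunit, had the smallest fall of the 4 in low Wnt (-0.78 ± 0.14, edgeR adjusted p = 9.34e-05).

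Other polymerase I genes did not move as one. Of 12 further subunits and factors, 4 rose and 3 fell in low Wnt against hESC, with a median log2 fold change of 0.24, and 3 rose and 3 fell in high Wnt. CD3EAP, a polymerase I subunit, fell by 2.43 ± 0.18 on the log2 scale in low Wnt (edgeR adjusted p = 3.3e-09) and had a log2 fold change of -3.42 ± 0.19 in high Wnt (edgeR adjusted p = 1.3e-10). TAF1A, a subunit of the promoter selectivity factor, rose instead, by 0.74 ± 0.16 in low Wnt (edgeR adjusted p = 0.000484) and 1.1 ± 0.16 in high Wnt (edgeR adjusted p = 8.53e-06).

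Among the snoRNP core proteins, 4 of 4 fell in low Wnt and 3 of 4 in high Wnt. NOP56, a scaffold of the box C/D particles, was at 445 and 491 CPM in hESC, at 217 and 237 CPM in low Wnt and at 184 and 205 CPM in high Wnt. DKC1, the pseudouridine synthase of the box H/ACA particles, was at 212 CPM in both hESC libraries, at 109 and 106 CPM in low Wnt and at 136 and 156 CPM in high Wnt. FBL, the methyltransferase fibrillarin, was at 494 and 610 CPM in hESC, 353 and 294 CPM in low Wnt, and 294 and 262 CPM in high Wnt. In these 3 genes no induced library reached an hESC library. NOP58, the partner of NOP56, moved least: its log2 fold change was -0.28 ± 0.12 in low Wnt (edgeR adjusted p = 0.0426) and -0.21 ± 0.12 in high Wnt (edgeR adjusted p = 0.115), and the low Wnt call was lost without hESC replicate 1 (edgeR adjusted p = 0.308) and without 8 other libraries in turn. NOP56 and DKC1 share 3.97% and 5.73% of their exon bases with small RNA genes inside them, and fragments over those bases were not counted. Of 12 other snoRNP proteins and assembly factors, 10 fell and 2 rose in low Wnt, with NOP10, a small H/ACA protein, at -2.03 ± 0.13 (edgeR adjusted p = 6.1e-10).

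The small-subunit factors differed widely among themselves. In low Wnt 9 of 11 fell (median log2 fold change -0.91) and in high Wnt 9 of 11 (median -0.97). RRP9, the U3 snoRNP protein whose promoter is printed above, was at 61.1 and 95 CPM in hESC, at 17.7 and 18.2 CPM in low Wnt, and at 12.3 and 14.9 CPM in high Wnt. The hESC libraries differed more from each other than the induced ones did, yet the groups were well apart, at -2.12 ± 0.17 (edgeR adjusted p = 9.61e-09) in low Wnt and -2.52 ± 0.18 (edgeR adjusted p = 1.61e-09) in high Wnt. RRP12, a factor in export and maturation of pre-ribosomes, was at 120 and 148 CPM in hESC, 37.0 and 39.4 CPM in low Wnt, and 25.3 and 28.9 CPM in high Wnt. UTP20, a large scaffold protein of the small-subunit processome, was at 134 and 108 CPM in hESC, 47.6 and 46.9 CPM in low Wnt, and 25.8 and 30.9 CPM in high Wnt, so that its lowest hESC library was over every induced one. WDR75, a processome protein required for precursor transcription, stood at the other end, with 125 and 141 CPM in hESC, 115 CPM in both low Wnt libraries, and 129 and 119 CPM in high Wnt. Of 39 other small-subunit factors, 27 fell and 1 rose in low Wnt and 25 fell and 4 rose in high Wnt. The helicase DHX37 had a log2 fold change of -2.36 ± 0.13 in low Wnt (edgeR adjusted p = 8.41e-11) and -2.85 ± 0.13 in high Wnt (edgeR adjusted p = 1.08e-11).

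The largest fall at each dose was in a large-subunit factor. Of the 12, 11 fell in low Wnt and 11 in high Wnt. NOP16, a nucleolar protein of early large-subunit particles (chr5:176383937-176388762, hg38, minus strand), was at 61.7 and 77.3 CPM in hESC, at 11.6 and 11.1 CPM in low Wnt, and at 8.23 and 11.3 CPM in high Wnt. That is 16.3% of the hESC mean in low Wnt and 14% in high Wnt, the lowest share of any member at both doses, and the log2 fold changes were -2.62 ± 0.20 (edgeR adjusted p = 4.86e-09) and -2.82 ± 0.20 (edgeR adjusted p = 2.37e-09). BOP1, PES1 and WDR12 form the PeBoW complex, which is needed to mature the large-subunit RNAs. BOP1 was at 174 and 247 CPM in hESC, 49.1 and 41.9 CPM in low Wnt, and 29.8 and 29.4 CPM in high Wnt. In high Wnt BOP1 was level with NOP16, at 14.05% of the hESC mean against 14.03%. Its log2 fold change there, -2.83, was the lowest of any member. PES1 was at 187 and 243 CPM in hESC, 86.3 and 84.2 CPM in low Wnt, and 74.4 and 72.7 CPM in high Wnt. WDR12 was at 88.5 and 89.2 CPM in hESC, 55.3 and 54.6 CPM in low Wnt, and 61.8 and 60.1 CPM in high Wnt. All 3 fell, but unequally: in low Wnt BOP1 was left with 21.6%, PES1 with 39.7% and WDR12 with 61.8% of the hESC mean.

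RRS1, an assembly factor of large-subunit precursors, was at 75.6 and 87.1 CPM in hESC, 20 and 17.4 CPM in low Wnt, and 19.6 and 24.5 CPM in high Wnt. Of the nucleolar GTPases GNL2 and GNL3, GNL3 (nucleostemin, known for its abundance in stem cells) was at 232 and 218 CPM in hESC, 175 and 203 CPM in low Wnt, and 207 and 227 CPM in high Wnt, where the groups overlapped. GNL2 fell by 0.25 ± 0.09 in high Wnt (edgeR adjusted p = 0.022), a call lost without hESC replicate 1 (0.148), high Wnt replicate 1 (0.0908) or high Wnt replicate 2 (0.0735). NOC3L, a partner of NOC2L in large-subunit export, fell by 0.42 ± 0.14 at both doses, and this call was lost in low Wnt without hESC replicate 1 (edgeR adjusted p = 0.0924) or low Wnt replicate 2 (0.12), and in high Wnt without hESC replicate 1 (0.0921) or high Wnt replicate 1 (0.0625). Of 48 other large-subunit factors, 36 fell and 2 rose in low Wnt and 33 fell and 4 rose in high Wnt. EIF6, which keeps new large subunits from joining small ones too early, fell by 1.87 ± 0.12 in low Wnt (edgeR adjusted p = 4.45e-10).

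The nucleolar chaperones split. NPM3 was at 109 and 128 CPM in hESC, 35.2 and 25.7 CPM in low Wnt, and 53.8 and 46.3 CPM in high Wnt. Its relative NPM1 (nucleophosmin, a histone and ribosomal protein chaperone) was at 2790 and 2629 CPM in hESC, 2248 and 2123 CPM in low Wnt, and 2804 and 2505 CPM in high Wnt, where the groups overlapped. Per kilobase of exon, NPM1 had the highest mean level of all members in hESC at 1522 CPM per kilobase. It made up 27.5% and 24.9% of the members' summed CPM in hESC, 37.0% and 35.5% in low Wnt, and 42.4% and 38.8% in high Wnt, so the summed level above fell by less than the median member did. NPM1 fell by 0.31 ± 0.09 in low Wnt (edgeR adjusted p = 0.00626, and 0.0572 without low Wnt replicate 2). The annotation names 45 NPM1 pseudogenes, and reads that matched more than 1 place were not counted, so its level is uncertain. NCL (nucleolin) went from 1650 and 1722 CPM in hESC to 902 and 869 CPM in low Wnt and 898 and 913 CPM in high Wnt, with no overlap.

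**Figure D2:**
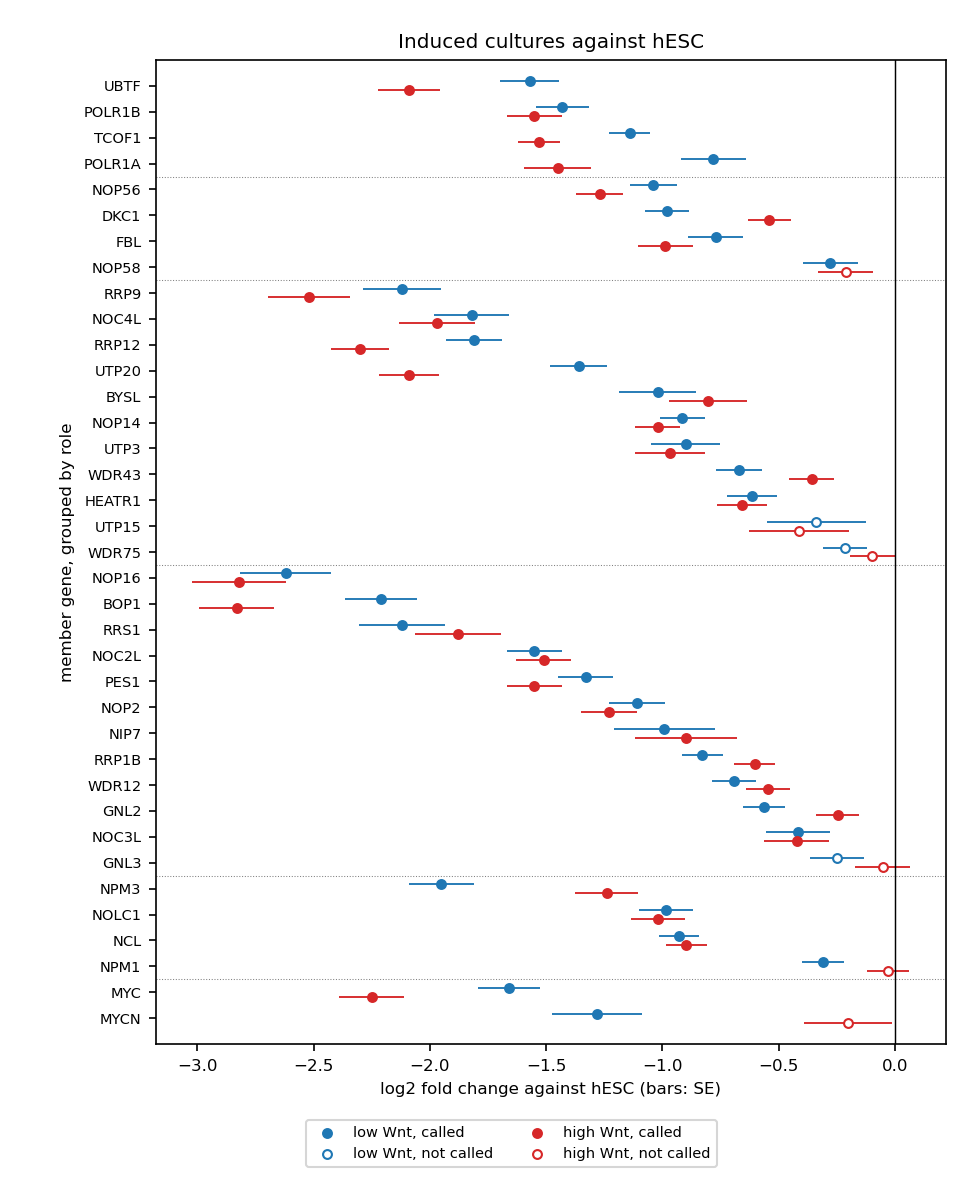
Log2 fold change of each of the 37 genes (rows, grouped by role and sorted within it) in low Wnt (blue) and high Wnt (red) against hESC, with bars for the SE and open points for genes not called. All points lie under 0, from -2.83 (BOP1 in high Wnt) to -0.03 (NPM1 in high Wnt).

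Of 79 cytosolic ribosomal protein genes, 34 fell, 5 rose and 40 were not called in low Wnt against hESC, with a median log2 fold change of -0.24 and a background of 35.6% of all genes called lower. In high Wnt against hESC 36 of them fell, 5 rose and 38 were not called. Many of these genes have near-identical copies, so single values such as the -1.91 ± 0.11 of RPS26 in low Wnt (edgeR adjusted p = 1.53e-10) are uncertain. The RNA exosome, which trims precursor RNA, had 4 of 14 genes lower and 2 higher in low Wnt (median -0.06).

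**Figure D3:**
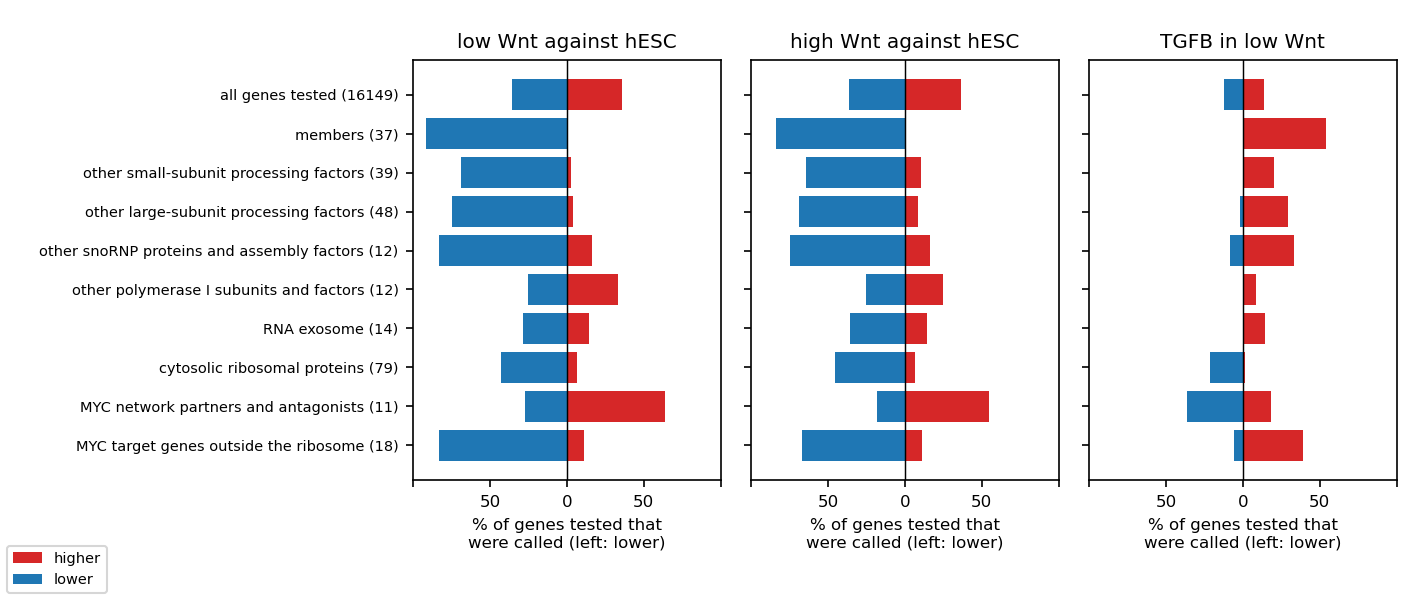
Share of the tested genes of each list that were called higher (red, to the right) or lower (blue, to the left) in low Wnt against hESC, high Wnt against hESC, and TGFB in low Wnt, with the number of genes in brackets. In the comparisons with hESC the members and the other small-subunit, large-subunit and snoRNP lists extend mostly to the left, and all genes tested extend about equally to both sides.

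MYC and MYCN did not follow the same course. MYC was at 121 and 137 CPM in hESC, 36.9 and 44.8 CPM in low Wnt, and 29 and 25.3 CPM in high Wnt. MYCN was at 192 and 223 CPM in hESC, 70.8 and 99.9 CPM in low Wnt, and 174 and 186 CPM in high Wnt. MYC was thus low in all induced libraries, whereas MYCN was low only in the low Wnt libraries and nearly as high in high Wnt as in the stem cells. The log2 fold change of MYC against hESC was -1.66 ± 0.13 in low Wnt (edgeR adjusted p = 1.05e-08) and -2.25 ± 0.14 in high Wnt (edgeR adjusted p = 3.47e-10). For MYCN it was -1.28 ± 0.19 in low Wnt (edgeR adjusted p = 1.67e-05) and -0.20 ± 0.19 in high Wnt, where the 95% interval ran from -0.60 to 0.20 (edgeR adjusted p = 0.343).

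Per kilobase of exon, MYCN made up 55.5% ± 0.423 (SD, n = 2) of the sum of both genes in hESC, 61.7% ± 2.51 in low Wnt and 83.8% ± 1.90 in high Wnt. With additives the share was 66.8% ± 5.50 in low Wnt + SB4, 62.4% ± 1.68 in low Wnt + TGFB, 83.7% ± 2.04 in high Wnt + SB4 and 82.9% ± 1.54 in high Wnt + TGFB. The share therefore divided the groups by CHIR99021 dose and not by additive. The sum itself was 123 ± 12.1 CPM per kilobase in hESC, 45.4 ± 9.12 in low Wnt and 70.7 ± 1.48 in high Wnt.

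**Figure D4:**
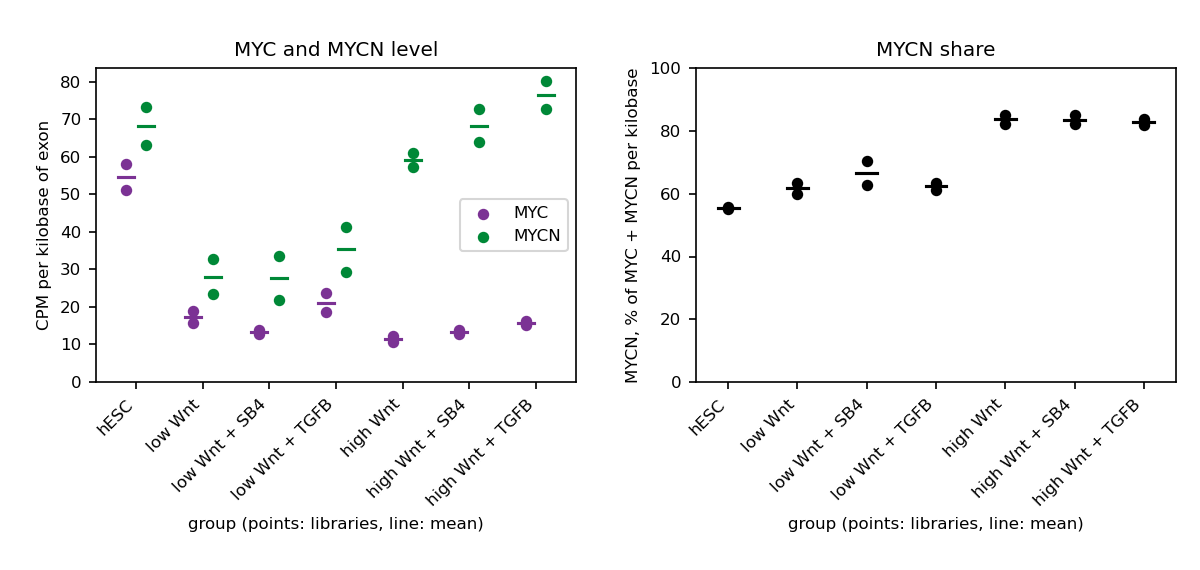
Left, MYC (purple) and MYCN (green) in CPM per kilobase of exon in each library, with a line at the mean of each group. Right, MYCN as a percentage of the sum of both, which lies between 55.5% and 66.8% in the group means of hESC and low Wnt cultures and between 82.9% and 83.8% in those of the 3 high Wnt groups.

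Other genes of the MYC network mostly rose. Of 11 partners and antagonists, 7 rose and 3 fell in low Wnt against hESC, and 6 rose and 2 fell in high Wnt. MXD3, a MAX partner that represses E-box genes, rose by 1.81 ± 0.16 on the log2 scale in low Wnt (edgeR adjusted p = 3.55e-08), from a mean of 9.63 CPM to 33.8 CPM. MXI1, another such repressor, rose by 2.84 ± 0.15 in high Wnt (edgeR adjusted p = 4.31e-11), from 13.2 CPM to 94.6 CPM. The genes that rose were not only repressors. MYCL, a relative of MYC and MYCN counted in this list, rose by 0.99 ± 0.11 in low Wnt (edgeR adjusted p = 7.19e-07). Its mean was 43.65 CPM in hESC, 86.85 CPM in low Wnt and 61.34 CPM in high Wnt. Of 18 known MYC targets outside the ribosome, 15 fell and 2 rose in low Wnt and 12 fell and 2 rose in high Wnt. SRM, the spermidine synthase, fell by 2.22 ± 0.13 in low Wnt (edgeR adjusted p = 1.84e-10), whereas ODC1, the enzyme just before it in polyamine synthesis, rose by 0.84 ± 0.13 (edgeR adjusted p = 2.41e-05).

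The CHIR99021 dose moved some members up and others down. Between high Wnt and low Wnt, 6 of the 37 genes rose and 7 fell, against a background of 19.4% called higher and 19.1% called lower, so the members' shares in either direction were near those of all genes. The median log2 fold change was -0.04. MYCN rose most, by 1.08 ± 0.19 (edgeR adjusted p = 0.00027), followed by NPM3 at 0.72 ± 0.14 (edgeR adjusted p = 0.000637), DKC1 at 0.44 ± 0.09 (edgeR adjusted p = 0.00133) and GNL2 at 0.32 ± 0.09 (edgeR adjusted p = 0.0109). WDR43 and NPM1 also rose. UTP20 fell most, by 0.74 ± 0.13 (edgeR adjusted p = 0.000199), followed by POLR1A at -0.67 ± 0.14 (edgeR adjusted p = 0.00138), BOP1 at -0.62 ± 0.16 (edgeR adjusted p = 0.0052) and MYC at -0.59 ± 0.14 (edgeR adjusted p = 0.00268). The other genes that fell were UBTF, RRP12 and TCOF1, so that 3 of the 4 polymerase I genes were lower at the higher dose.

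POLR1A shows the difference well, with 60.1 and 59.8 CPM in low Wnt and 33.5 and 41.8 CPM in high Wnt. The count of genes that rose was 3 without low Wnt replicate 2 and 3 without high Wnt replicate 1. Calls held without each library in turn for MYCN, NPM3, DKC1, UTP20, POLR1A and TCOF1. MYC missed the threshold without low Wnt replicate 2 (edgeR adjusted p = 0.0501), BOP1 without low Wnt replicate 1 (0.0585), UBTF and RRP12 without high Wnt replicate 1 (0.0588 and 0.0592), and GNL2 without any 1 of the 4 libraries (0.0509 to 0.0619). WDR43 missed it without low Wnt replicate 1 (0.0652), low Wnt replicate 2 (0.103) or high Wnt replicate 1 (0.16), and NPM1 without low Wnt replicate 2 (0.143) or high Wnt replicate 1 (0.232). Of the 39 other small-subunit factors 6 rose and 3 fell, and of the 48 other large-subunit factors 4 rose and 2 fell. RIOK1, a kinase of late small-subunit maturation, rose by 1.14 ± 0.10, and CD3EAP fell by 0.99 ± 0.20. Of the 79 ribosomal protein genes, edgeR called 0, with 6 at an unadjusted p under 0.05. Between the same groups, high Wnt against low Wnt, all 8 stem cell markers fell (median -2.86), 5 of 7 central nervous system markers fell and 1 rose (median -5.41), and 6 of 8 mesoderm markers rose and 1 fell (median 5.27). Of the 10 neural crest markers 4 rose and 4 fell, and of the 4 endoderm markers 1 rose and 1 fell. The summed levels of these lists in both groups are those given for the induction above, and their part in the members' changes was not tested.

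TGF-beta 1 raised many of the genes at the low dose. Between low Wnt + TGFB and low Wnt, 20 of the 37 genes rose and 0 fell, with a background of 13.7% called higher and 12.2% called lower. The median log2 fold change of the members was 0.33, where that of all genes was -0.01, and 36 of the 37 values were above 0, the exception being FBL at -0.02 ± 0.12 (edgeR adjusted p = 0.931). The members' summed level was 6080 and 5980 CPM in low Wnt and 7226 and 7044 CPM in low Wnt + TGFB. Genes of every role took part apart from the MYC family, with 3 of 4 polymerase I genes, 2 of 4 snoRNP proteins, 6 of 11 small-subunit factors, 7 of 12 large-subunit factors and 2 of 4 chaperones called higher.

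The largest rises were in NOP16, UBTF, RRP9 and UTP20. NOP16 was at 11.6 and 11.1 CPM in low Wnt and at 16.9 and 22.7 CPM with TGFB, a log2 fold change of 0.81 ± 0.20 (edgeR adjusted p = 0.00614). UBTF was at 57.6 and 55.0 CPM in low Wnt and at 92.9 and 102 CPM with TGFB, a log2 fold change of 0.79 ± 0.13 (edgeR adjusted p = 0.000185). RRP9 was at 17.7 and 18.2 CPM in low Wnt and at 30.7 and 31.1 CPM with TGFB, a log2 fold change of 0.79 ± 0.17 (edgeR adjusted p = 0.00232). UTP20 was at 47.6 and 46.9 CPM in low Wnt and at 82.5 and 77.7 CPM with TGFB, a log2 fold change of 0.76 ± 0.12 (edgeR adjusted p = 0.000172). In all 4 genes both TGFB libraries lay above both low Wnt libraries. RRS1 rose by 0.74 ± 0.19 (edgeR adjusted p = 0.00706), and the nucleolar proteins NPM3, DKC1 and NCL by 0.49 ± 0.14, 0.44 ± 0.09 and 0.38 ± 0.09. NCL was at 902 and 869 CPM in low Wnt and at 1183 and 1128 CPM with TGFB.

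MYC and MYCN were not called, at 0.29 ± 0.13 (edgeR adjusted p = 0.119) and 0.33 ± 0.19 (edgeR adjusted p = 0.223), and in both genes the libraries of the 2 groups overlapped. The count of 20 was 11 without low Wnt replicate 1, 9 without low Wnt replicate 2 and 6 without low Wnt + TGFB replicate 2, with each left-out fit testing 1 library against 2. UBTF, DKC1, UTP20, RRP9, WDR12 and NCL were called without each library in turn. NOP16 missed the threshold without low Wnt + TGFB replicate 2 (edgeR adjusted p = 0.0995), RRS1 without that library (0.14) or low Wnt replicate 2 (0.0718), and NPM3 without the same libraries (0.105 and 0.238). In the left-out fits the log2 fold changes of all 20 genes stayed above 0.

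Related lists rose in part. Of the 39 other small-subunit factors, 8 rose and 0 fell (median log2 fold change 0.21), and of the 48 other large-subunit factors 14 rose and 1 fell (median 0.20). Of the 12 other polymerase I genes 1 rose and 0 fell, with a median of -0.06. That gene was CD3EAP, which rose by 1.30 ± 0.18 (edgeR adjusted p = 3.49e-05). The helicase DDX21 rose by 0.68 ± 0.10 (edgeR adjusted p = 0.000112). MDN1, the large ATPase that strips factors from large-subunit precursors, rose by 1.00 ± 0.19 (edgeR adjusted p = 0.000886). Of the 79 ribosomal protein genes, 17 fell, 1 rose and 61 were not called, with a median of -0.17 and a background of 12.2% called lower. In these same libraries 7 of 8 stem cell markers rose and 1 fell, with a summed level of 1060 to 1100 CPM in low Wnt and 1820 to 1960 CPM with TGFB. All 4 endoderm markers rose, from a sum of 17.2 to 18 CPM to one of 60.4 to 109 CPM, and 5 of 7 central nervous system markers fell, from 258 to 264 CPM to 78.5 to 85.2 CPM. Of 10 neural crest markers 5 rose and 1 fell, with a sum of 165 to 166 CPM in low Wnt and 159 to 169 CPM with TGFB. Of 8 tested mesoderm markers 2 rose and 0 fell. The sum over the 9 listed was 9.32 to 10.2 CPM in low Wnt and 53.5 to 57.1 CPM with TGFB. Of 25 cell cycle genes 5 rose and 8 fell. The part of these markers in the members' rise was not tested.

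The rise did not bring the set back to its level in the stem cells. Between low Wnt + TGFB and hESC, 32 of the 37 genes were lower and 0 higher (background 31.8% lower and 31.4% higher), with a median level of 60.5% of the hESC mean. The genes not called were NOC3L, UTP15, WDR75, GNL3 and NOP58. NOP16 was the lowest member again, at 28.5% of the hESC mean, and UBTF was at 58.0%. Calls were kept without each library in turn by 24 of the 32 genes, and the 8 others were POLR1A, HEATR1, WDR43, UTP3, WDR12, GNL2, NIP7 and NPM1, with edgeR adjusted p-values up to 0.486 (HEATR1 without hESC replicate 1). With library totals alone as the scaling, which moves the median of all genes by 0.172 in this comparison, the same 8 genes lost their calls and 24 members were lower.

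For SB431542 at the low dose no member passed the test. Between low Wnt + SB4 and low Wnt, edgeR called 0 of the 37 genes, with 3 at an unadjusted p under 0.05, and DESeq2 called 0, also with 3 (background 4.84% higher and 6.39% lower). The median log2 fold change was 0.01. The lowest value was that of MYC, with 36.9 and 44.8 CPM in low Wnt and 30.4 and 33 CPM with SB4, at -0.37 ± 0.14 (edgeR adjusted p = 0.0955) and a 95% interval of -0.65 to -0.08. The highest was that of NOC4L at 0.33 ± 0.16 (edgeR adjusted p = 0.222). Of the 8 stem cell markers, 7 fell and 0 rose (median -2.35). Their sum was 1060 to 1100 CPM in low Wnt and 814 to 858 CPM with SB4. Of the 7 central nervous system markers 4 rose and 1 fell, and of the 25 cell cycle genes 5 rose and 1 fell. Of the 10 neural crest markers 2 rose and 2 fell, and of the 8 tested mesoderm markers 0 rose and 3 fell. Any link between these lists and the members was not tested. Among 12 other polymerase I genes, 2 fell, TAF1B at -0.53 ± 0.13 and RRN3, the polymerase I initiation factor, at -0.87 ± 0.27, and 0 of the other small-subunit, large-subunit or snoRNP factors were called, with 5, 0 and 1 of them at an unadjusted edgeR p under 0.05.

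SB431542 at the high dose raised a few genes. Between high Wnt + SB4 and high Wnt, 6 of the 37 rose and 0 fell, against a background of 9.94% called higher and 11.6% called lower. UBTF rose most, from 36.4 and 42.1 CPM to 68.4 and 73.3 CPM, a log2 fold change of 0.85 ± 0.13 (edgeR adjusted p = 0.000208). RRP9 was at 12.3 and 14.9 CPM in high Wnt and at 22.4 and 20.3 CPM with SB4 (0.65 ± 0.18, edgeR adjusted p = 0.015). UTP20 was at 25.8 and 30.9 CPM in high Wnt and at 39.6 and 45.7 CPM with SB4 (0.59 ± 0.13, edgeR adjusted p = 0.00344). BOP1 was at 29.8 and 29.4 CPM in high Wnt and at 45.7 and 38.9 CPM with SB4 (0.51 ± 0.16, edgeR adjusted p = 0.0299). In each of these genes both SB4 libraries were above both high Wnt libraries, and all 4 still lay far under their hESC levels. NOP56 and TCOF1 rose by 0.30 ± 0.10 and 0.30 ± 0.09 (edgeR adjusted p = 0.0436 and 0.0233).

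NPM3 went down, from 53.8 and 46.3 CPM to 40.1 and 36.0 CPM, at -0.39 ± 0.14, and missed the threshold (edgeR adjusted p = 0.0534). The count of 6 was 1 without high Wnt replicate 1, 3 without high Wnt + SB4 replicate 1 and 3 without high Wnt + SB4 replicate 2. Only UBTF was called without each library in turn (highest edgeR adjusted p = 0.00654, without high Wnt replicate 1). Of 25 cell cycle genes, 13 rose and 0 fell in this comparison, and their summed level was 6180 to 6230 CPM in high Wnt and 7300 to 7350 CPM with SB4, with the replicative helicase subunit MCM6 at 0.91 ± 0.11. Of 7 central nervous system markers 4 rose, from a sum of 19 to 24.4 CPM with DBX1 at 0 to one of 119 to 154 CPM, and of 8 tested mesoderm markers 5 fell, from a sum over the 9 listed of 208 to 242 CPM to one of 123 to 147 CPM. Their part in the members' change was not tested. Of the other small-subunit factors 3 of 39 rose, and of the other large-subunit factors 4 of 48 rose and 3 fell.

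For TGF-beta 1 at the high dose 1 gene of the set was called, a share near that of all genes tested. Between high Wnt + TGFB and high Wnt, UBTF rose, from 36.4 and 42.1 CPM to 49.8 and 63.7 CPM (0.54 ± 0.13, edgeR adjusted p = 0.0186), and 0 genes fell, against a background of 3.75% called higher and 3.49% called lower. The UBTF call was lost without high Wnt replicate 1 (edgeR adjusted p = 0.176) or high Wnt + TGFB replicate 2 (0.263). The median log2 fold change of the set was -0.02. MYC was at 29 and 25.3 CPM in high Wnt and at 38.3 and 36.1 CPM with TGFB, which did not overlap, at 0.45 ± 0.14 (edgeR adjusted p = 0.0612, and called in 6 of 7 other settings of scaling, filter, fit or tool). MYCN was at 174 and 186 CPM in high Wnt and at 221 and 243 CPM with TGFB (0.37 ± 0.19, edgeR adjusted p = 0.287). MXI1 fell by 0.91 ± 0.13, and 5 of 8 tested mesoderm markers rose, from a sum of 208 to 242 CPM to one of 432 to 508 CPM. The part of these genes in the UBTF rise was not tested.

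The additive effects were compared between doses by the interaction in the same fit. The TGFB effect was lower in high Wnt than in low Wnt for 5 of the 37 genes and higher for 0, against a background of 6.06% called lower and 5.73% called higher, and the median difference in log2 fold change was -0.30. WDR43, a small-subunit processome protein, went from 101 and 98.1 CPM to 126 and 132 CPM with TGFB at the low dose, and from 128 and 119 CPM to 109 and 101 CPM at the high dose. The libraries thus moved in opposite directions at the 2 doses, although the fall at the high dose was not called. The rise at the low dose was called, but that call was lost without low Wnt replicate 2. The difference of the effects was -0.60 ± 0.14 (edgeR adjusted p = 0.00769). DKC1 differed by -0.51 ± 0.13 (edgeR adjusted p = 0.0178), WDR12 by -0.46 ± 0.13 (edgeR adjusted p = 0.0337), NCL by -0.44 ± 0.12 (edgeR adjusted p = 0.0281) and RRP1B by -0.40 ± 0.13 (edgeR adjusted p = 0.0491).

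For NOP16, RRP9 and UTP20, the TGFB rise in low Wnt was not shown to differ from the high dose, with differences of -0.35 ± 0.29, -0.53 ± 0.25 and -0.44 ± 0.18 (edgeR adjusted p = 0.499, 0.193 and 0.124). UBTF rose with TGFB at both doses, and its difference was -0.25 ± 0.18 with a 95% interval of -0.64 to 0.13 (edgeR adjusted p = 0.431). The count of 5 depended on single libraries. It was 2 without low Wnt replicate 1, 1 without low Wnt replicate 2, 3 without either low Wnt + TGFB library, 2 without high Wnt replicate 1, 1 without high Wnt replicate 2, 1 without high Wnt + TGFB replicate 1, 3 without high Wnt + TGFB replicate 2 and 8 without hESC replicate 1. Only WDR43 was called without each library in turn.

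**Figure D5:**
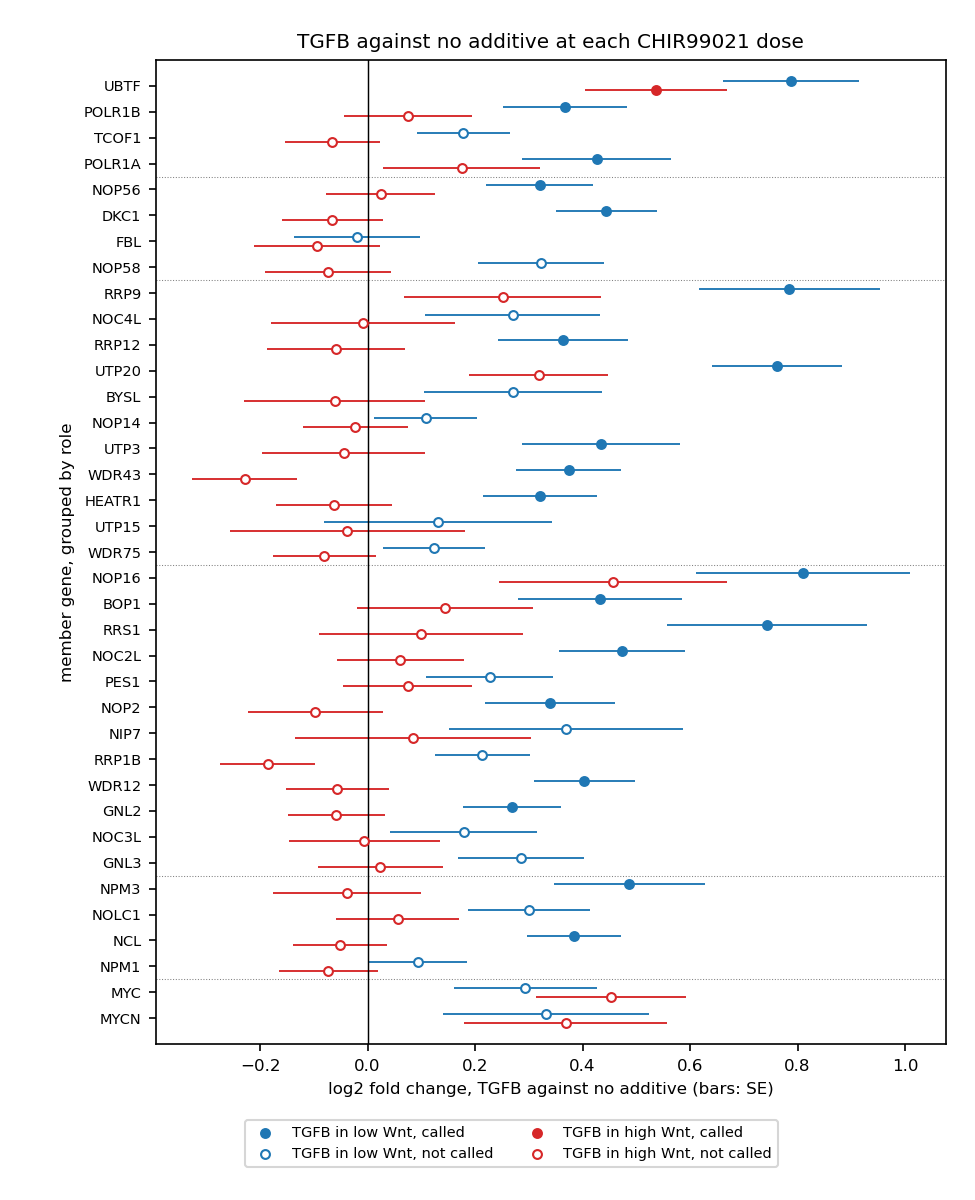
Log2 fold change of each of the 37 genes (rows, grouped by role) for TGFB against no additive in low Wnt (blue) and in high Wnt (red), with bars for the SE and open points for genes not called. In low Wnt 36 of 37 points lie above 0, and in high Wnt 16 do.

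The SB4 effect differed between doses for 1 gene, a share near that of all genes tested. The difference for UBTF was 0.81 ± 0.18 (edgeR adjusted p = 0.0112), with a background of 2.71% called higher and 3.36% called lower, since UBTF was at 54.8 and 60.8 CPM in low Wnt + SB4, close to the 57.6 and 55.0 CPM of low Wnt, but rose with SB4 in high Wnt. This call was lost without low Wnt + SB4 replicate 1 (edgeR adjusted p = 0.0641), high Wnt replicate 1 (0.0683) or high Wnt + SB4 replicate 2 (0.0527). Over the 7 groups UBTF was highest in hESC, followed by low Wnt + TGFB, high Wnt + SB4, low Wnt + SB4, high Wnt + TGFB and low Wnt, and lowest in high Wnt, and the libraries of low Wnt, low Wnt + SB4 and high Wnt + TGFB overlapped within 49.8 to 63.7 CPM.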

How the data were processed

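The deposited table holds the authors' unnormalized gene counts for the 14 libraries. The submitters' processing notes name hg38, featureCounts 2.0.0, SAMtools 1.10, HISAT2 2.2.0 and bcl2fastq. Per the file headers, fragments were counted over exons by gene with reverse strandedness, and neither multiply mapped reads nor reads over several genes were counted. Per the labels' protocols, RNA was polyadenylated RNA and libraries kept the strand. How reads were trimmed is not stated in these sources.

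The counts were tested with edgeR 4.0.16 (R 4.3.3): filterByExpr by group, TMM scaling, and quasi-likelihood F-tests in a single model of the 7 group means over all libraries, which left 7 residual degrees of freedom (common biological coefficient of variation 0.101), with Benjamini-Hochberg adjustment over 16149 genes in each of 10 contrasts. On data simulated for low Wnt against hESC over 15647 genes, 72.0% of genes raised by 1 on the log2 scale and 56.2% of genes lowered by 1 were called. The simulation left 15453 genes unchanged, whereas in the real comparison 35.8% of genes were called higher and 35.6% lower. Its rates therefore do not carry over to the real comparison. Alternatives were RLE, upper quartile and library-total scaling, no filter, only the groups compared, DESeq2 1.42.0, a log2 fold change of 1 or more, a replicate block and leaving out each library. Members, role groups and other gene lists were chosen with earlier results of these data known. All 37 members may be named, with library values for MYC, MYCN and, per contrast, up to 4 called members with the largest rises and falls, further members being added after their values were seen. Other lists name up to 2 genes per direction and contrast with the smallest p among those called. Counts of replicates differed beyond sampling noise, with a chi-square over its degrees of freedom of 5.33 to 14.4. The highest value was that of hESC, the reference of the induction comparisons, and the induced groups ran from 5.33 to 8.59.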

Additional observations from a re-analysis of the deposited data

Results flagged for a closer look

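By the interaction test, the effect of an additive differed between the CHIR99021 doses for 6 members. For SB4 this was 1 of the 37, a share like that of all tested genes (2.71% called higher and 3.36% lower). For TGFB it was 5 of the 37, all lower, against 6.06% of all tested genes called lower and 5.73% higher. The SB4 effect on UBTF was higher in high Wnt by 0.811 on the log2 scale. The TGFB effect was lower in high Wnt by a log2 difference of -0.603 for WDR43, -0.51 for DKC1, -0.46 for WDR12, -0.436 for NCL and -0.398 for RRP1B. For each of these 6 genes the difference itself passed edgeR's quasi-likelihood test after Benjamini-Hochberg adjustment, and only WDR43 did so without each library in turn.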

How the results depend on the processing

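Under all alternatives run, no member's called direction was reversed. A log2 fold change of at least 1 left 18 members lower in low Wnt, 19 in high Wnt and 11 in low Wnt + TGFB against hESC. Of all 16149 genes, 3255, 3489 and 2212 were lower and 3295, 3484 and 2553 higher in those comparisons, in that order. The same threshold left 1 member higher (MYCN) and 0 lower in high Wnt against low Wnt. It left 0 for TGFB in low Wnt, SB4 in high Wnt, TGFB in high Wnt and both differences between doses. For SB4 in high Wnt, 1 member (NPM3) was lower with RLE scaling, the replicate block, DESeq2, no filter or only the groups compared. For TGFB in high Wnt, 2 members were higher with upper quartile scaling, library totals, the replicate block or DESeq2, and 3 with no filter or only the groups compared. For the difference of SB4 effects, 3 were higher with no filter and 2 with only the groups compared. The cause was not tested.

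Leaving out each library in turn, where a lone library is assumed to vary like the other groups, gave 32 to 34 members lower in low Wnt, 29 to 31 in high Wnt and 26 to 31 in low Wnt + TGFB against hESC. It gave 3 to 7 higher and 5 to 8 lower in high Wnt against low Wnt, 6 to 22 higher for TGFB in low Wnt, 1 to 8 higher and 0 to 1 lower for SB4 in high Wnt, and 0 to 2 higher for TGFB in high Wnt. The differences between doses gave 0 to 2 higher for SB4 and 1 to 8 lower for TGFB. Fewer libraries are tested in each of these fits.

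Library totals alone moved the share of all calls that were higher from 49.7% to 60.1% in low Wnt + TGFB against hESC, from 52.9% to 66.8% for TGFB in low Wnt, from 46.2% to 57.0% for SB4 in high Wnt and from 51.8% to 66.2% for TGFB in high Wnt.

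Replicate numbers were not shown to pair libraries: deviations of same-numbered libraries correlated at -0.166 to 0.309 over 21 pairs of groups, 10 of them over 0.1, although in all 7 groups a library correlated best with one of its own number. With the replicate block the members lower numbered 37 in low Wnt and 32 in high Wnt against hESC, and 24 were higher for TGFB in low Wnt. The block added 15 member calls and removed 0. Counting depth did not keep any member from being tested.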
